A study of Mus musculus with 20 samples.

Results

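The T-cell receptor alpha V segments (Trav genes) were described in CD8+ T cells sorted from mouse tumours. Members were all gene symbols of the expression table that begin with Trav, which gave 128 of 45777 symbols, in 23 numbered subfamilies. RNA sequencing had been done on 20 libraries in 4 groups of 5: Control, Pembrolizumab, ABL503 and Combination, the last of which received both agents. All mice, controls included, were C57BL/6 animals carrying human PD-1, human PD-L1 and human 4-1BB, and all bore tumours of MC38, a mouse colon carcinoma line that here overexpressed human PD-L1. Treatment was assigned at random once tumours had a mean volume of 150 to 200 mm3, and the T cells were taken on day 4 of treatment. Pembrolizumab blocks the checkpoint receptor PD-1, while the bispecific antibody ABL503 is directed at PD-L1 and at 4-1BB, a costimulatory receptor of T cells. The labels give no age or sex, do not say what the Control group was given, and do not tie each library to a mouse of its own, so a p-value here speaks only of the variation among these libraries, which may be technical.

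A T cell builds the alpha chain of its receptor by joining 1 V segment to 1 J segment of the alpha locus, and the joined exon is spliced to the constant gene Trac. Each clone keeps its choice when it divides, so the V segments transcribed in a T-cell population reflect which clones it holds and how much receptor RNA each makes. In C57BL/6 mice the central part of the V cluster is repeated, and the repeats carry d or n in the symbol (Trav7d-5, Trav7n-5) beside the original copy (Trav7-5). Some V segments can also join the delta chain and carry a dv name. Trav11 is the V segment of invariant NKT cells and Trav1 that of MAIT cells, both T cells with a nearly fixed alpha chain.

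The last 90 coding bases of the segments that led the Combination libraries are printed first, because this stretch runs into the junction with the J segment and is where a V segment ends in a receptor transcript. They were read from the GENCODE M21 transcripts of GRCm38, plus strand, with Trav12-2 at chr14:53616825-53616914, Trav12-3 at chr14:53622156-53622245, Trav17 at chr14:53807026-53807115 and Trav5n-4 at chr14:53313333-53313422. Capitals mark TGTGC, whose first 3 letters are the cysteine codon that opens the junction. Searched on the coding strand alone, TGTGC was found within the last 20 coding bases of 86 of the 108 segments with a coding sequence (79.6%).
Trav12-2: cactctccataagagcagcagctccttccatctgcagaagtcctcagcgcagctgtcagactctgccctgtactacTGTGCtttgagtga
Trav12-3: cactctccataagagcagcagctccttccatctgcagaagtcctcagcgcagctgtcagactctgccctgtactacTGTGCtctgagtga
Trav17: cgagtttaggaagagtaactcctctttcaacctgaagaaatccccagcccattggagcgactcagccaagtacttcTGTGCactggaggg
Trav5n-4: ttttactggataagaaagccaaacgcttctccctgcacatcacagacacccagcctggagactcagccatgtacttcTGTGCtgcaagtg

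Copies of a segment can be hard to tell apart by short reads, which the next set shows. Trav7n-5 and Trav7d-5, both high in the library Combination 5, had the same coding sequence. Within the printed stretch Trav7-5 differed from them at the bases in capitals, and over 337 coding bases it differed from Trav7d-5 at 14. In the order Trav7n-5, Trav7d-5 and Trav7-5, the stretches lay at chr14:53147359-53147448, chr14:52836298-52836387 and chr14:53531224-53531313.
Trav7n-5: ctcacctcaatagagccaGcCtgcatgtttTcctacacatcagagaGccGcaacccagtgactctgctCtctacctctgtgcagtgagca
Trav7d-5: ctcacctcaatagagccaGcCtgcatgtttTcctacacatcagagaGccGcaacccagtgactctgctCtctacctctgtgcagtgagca
Trav7-5: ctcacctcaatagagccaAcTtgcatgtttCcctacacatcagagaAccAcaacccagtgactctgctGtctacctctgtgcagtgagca
The 3 copies of Trav16, whose original copy led Combination 5, are printed in the same way, with Trav16 at chr14:53743616-53743705, Trav16n at chr14:53351532-53351621 and Trav16d-dv11 at chr14:53047732-53047821.
Trav16: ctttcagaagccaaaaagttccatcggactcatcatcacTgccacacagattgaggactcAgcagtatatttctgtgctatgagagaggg
Trav16n: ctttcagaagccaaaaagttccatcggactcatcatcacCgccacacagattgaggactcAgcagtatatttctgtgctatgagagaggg
Trav16d-dv11: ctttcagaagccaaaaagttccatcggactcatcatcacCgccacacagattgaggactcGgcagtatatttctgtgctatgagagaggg

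The Trav8 and Trav14 subfamilies were the ones called lower in the Combination group, and some of their copies are printed next. Capitals again mark the bases that differ within a set. The stretches of Trav8 were Trav8d-2 at chr14:53042802-53042891 and Trav8n-2 at chr14:53346335-53346424.
Trav8d-2: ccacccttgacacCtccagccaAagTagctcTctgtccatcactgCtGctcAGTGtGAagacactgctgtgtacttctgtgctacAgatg
Trav8n-2: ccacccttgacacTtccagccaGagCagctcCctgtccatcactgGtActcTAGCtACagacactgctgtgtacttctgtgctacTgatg
Those of Trav14 were Trav14-3 at chr14:53763605-53763694, Trav14d-3-dv8 at chr14:53078956-53079045 and Trav14n-3 at chr14:53370486-53370575.
Trav14-3: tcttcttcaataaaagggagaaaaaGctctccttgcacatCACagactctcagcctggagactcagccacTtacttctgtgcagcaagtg
Trav14d-3-dv8: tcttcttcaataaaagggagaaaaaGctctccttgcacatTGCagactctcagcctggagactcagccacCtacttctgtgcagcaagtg
Trav14n-3: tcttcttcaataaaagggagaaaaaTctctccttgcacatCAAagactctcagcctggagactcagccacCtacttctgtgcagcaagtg

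All 128 segments were found in GENCODE M21, on the plus strand of chromosome 14 from 52427928 (the start of Trav1) to 53977678 (the end of Trav23). The annotation calls 108 of them genes and 20 pseudogenes. By symbol, 55 were original copies, 39 were d copies and 34 were n copies, and 10 had a delta name as well. Coding sequences ran from 310 to 377 bases. In 40 of 108 segments the most similar other segment was identical over the coding part, which made 20 identical pairs, mostly of a d and an n copy. The members of a pair also had similar values: the share of the per-library profile that both members of an identical pair had in common was 93.5% at the median, with a range from 45.7% to 99.4%. For pairs from 98% to under 100% identical it was 43.2%, and for pairs under 90% identical it was 23.0%. Levels of identical copies therefore depend on how reads were divided between them, so evenness, leading shares, profile overlap and the tests are also given for subfamilies or added copies. Counts of detected segments and the share of the 5 highest are given for single segments alone.

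Values were FPKM, fragments scaled to gene length and to the library's mapped fragments, a level per length, as judged from the table, which names no unit. Column sums ran from 575918 to 654333, and with read depth unknown there are no counting intervals. Markers of the sorted cells were high: Cd8a averaged 279 ± 46.7 FPKM over the Control libraries and 377 ± 61.0 over the Combination libraries, and Cd3e 248 ± 51.7 and 275 ± 34.3 (mean ± SD of 5 libraries, here and throughout). Rag1 and Rag2, which cut receptor genes in immature T cells, were listed at 0 in every library. Marker sums of other cell types are given beside the evenness result.

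Of the 128 segments, 30 were above 0 in all 20 libraries, 8 were at 0 in every library and 16 stayed below 1 FPKM in every library. The 8 segments at 0 were all pseudogenes, and pseudogenes together held 0.150% to 1.92% of the summed Trav FPKM. Summed Trav FPKM was 1129.8 ± 145 in Control, 929.5 ± 127 with Pembrolizumab, 1056 ± 176 with ABL503 and 1181 ± 422 with the Combination. The groups overlapped, and the wide spread of the Combination came from Combination 4 at 1748 FPKM and Combination 5 at 1513 FPKM, beside 814 to 943 FPKM in the other 3. Trac, the constant gene that every alpha chain uses, followed the sum: the ratio of summed Trav to Trac FPKM lay between 0.705 and 0.987 in all libraries. Trac itself differed from Control by -0.00 on the log2(FPKM + 1) scale in the Combination (SE 0.14, limma with Benjamini-Hochberg adjusted p = 0.99). In bulk RNA, fewer cells with a segment and less receptor RNA per cell cannot be told apart, so a share here is a share of transcripts and not of cells.

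The evenness of the repertoire was lowest in the Combination group. It was measured as the effective number of segments, the exponential of the Shannon entropy of the shares, which is the number of equally used segments that would give the same entropy. The 5 Control libraries had effective numbers of 44.9, 45.3, 42.2, 37.1 and 22.7. Pembrolizumab libraries had 44.2, 27.9, 27.5, 22.4 and 31.3, and ABL503 libraries had 38.0, 35.6, 28.4, 37.4 and 33.5. In the Combination they were 19.3, 7.95, 35.5, 8.85 and 4.86. Thus 4 of the 5 Combination libraries lay below the lowest library of each other group, while Combination 3 lay within the range of all of them. The means were 38.4 ± 9.40 in Control, 30.7 ± 8.20 with Pembrolizumab, 34.6 ± 3.88 with ABL503 and 15.3 ± 12.5 with the Combination. The other 3 groups overlapped each other over most of their ranges. These indices summarise the members themselves and are given as values without a p.

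**Figure D1:**
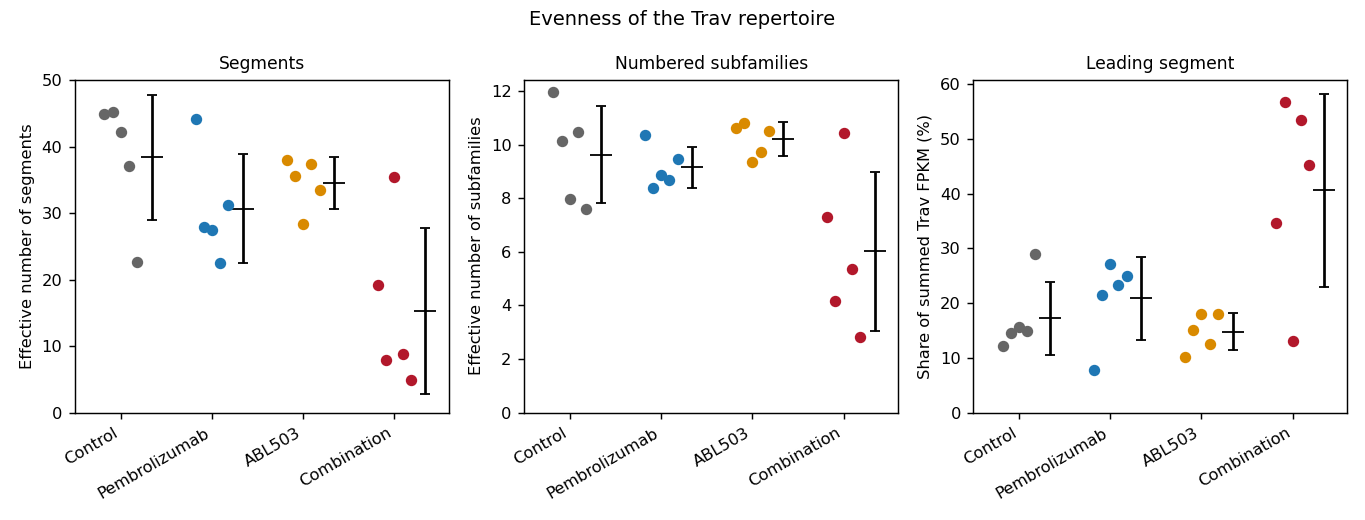
Effective number of Trav segments, effective number of Trav subfamilies and share of the leading segment (% of summed Trav FPKM) in each library, by treatment group. Points are libraries, and the black mark and bars beside them are the mean and SD of 5 libraries. In each panel 4 Combination libraries lie apart from most others, and Combination 3 lies among the other groups.

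The same order of the Combination and Control groups was seen with other measures of evenness. Pielou evenness, which runs from 0 to 1 and divides the entropy by its maximum, was 0.783 ± 0.0622 in Control, 0.746 ± 0.0499 with Pembrolizumab, 0.777 ± 0.0170 with ABL503 and 0.556 ± 0.166 with the Combination. With numbered subfamilies as the unit, the effective number was 9.63 ± 1.82, 9.15 ± 0.779, 10.2 ± 0.631 and 6.02 ± 2.96, in the same order of groups. Combination 5 had the lowest of these at 2.83, and Combination 3 reached 10.4. With the original, d and n copies of a segment added together, the Combination minus Control difference was -9.86, against -23.2 for single segments. The size of the difference therefore depends on whether copies are counted apart, whereas 4 of 5 Combination libraries lay below the lowest Control library either way. With copies added together, however, Combination 1 at 12.03 was barely below Control 5 at 12.16. By subfamily these 2 libraries were also close, at 7.30 and 7.61. The difference for single segments was -28.2 without Combination 3 and -20.6 without Combination 5.

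The Combination libraries also had the fewest detected segments as a group. Control libraries had 93, 86, 86, 84 and 80 segments at 1 FPKM or more, Pembrolizumab libraries 75, 75, 73, 72 and 75, and ABL503 libraries 76, 79, 68, 79 and 86. The Combination libraries had 66, 46, 71, 60 and 22. All 5 were below the lowest Control library and below the lowest Pembrolizumab library, and the Pembrolizumab libraries were likewise all below Control, although their evenness overlapped with Control. Detection and evenness did not run in parallel in every library: Control 5, the least even Control library, had 80 segments, and the more even Combination 3 had 71. The 5 highest segments of each library together held 42.3% ± 9.86 of the Trav sum in Control, 46.2% ± 9.85 with Pembrolizumab, 42.4% ± 3.49 with ABL503 and 69.7% ± 19.9 with the Combination. In Combination 5 they held 94.2%, and in Combination 3 they held 42.1%, near the Control mean. How far the number of cells or reads per library bears on detection was not tested.

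Mean marker sums of other cell types differed between the groups. The summed FPKM of 6 dendritic-cell genes was 182 in Control (115 to 352), 76.7 with Pembrolizumab (37.4 to 131), 177 with ABL503 (103 to 249) and 50.3 with the Combination (34.4 to 60.3), so the Combination and Control ranges did not overlap. Most of this sum was Cd74 and H2-Ab1, genes of antigen presentation on MHC class II, and both were called lower in Combination against Control (-1.91, SE 0.32, adjusted p = 0.00088, and -1.87, SE 0.48, adjusted p = 0.015). Cd74 was lowest of all 20 libraries in Combination 3, at 13.9 FPKM, the Combination library with the most even repertoire. Xcr1, a chemokine receptor of dendritic cells, went the other way, with means of 2.52 FPKM in Control, 4.36 with Pembrolizumab and 3.69 with the Combination, and was called higher in Pembrolizumab against Control (0.61, SE 0.14, adjusted p = 0.017). For 5 NK-cell genes the sums were 89.9, 52.8, 52.5 and 25.5 FPKM in the order Control, Pembrolizumab, ABL503 and Combination, with ranges of 47.7 to 149.9 in Control and 8.58 to 48.2 in the Combination. Nearly all of this sum was Tyrobp and Fcer1g, with Control means of 45.7 and 42.9 FPKM. These were the only 2 of the list that could be tested, and both were called lower in Combination against Control. Ncr1, Klrb1c and Klra8 averaged 0.168, 0.866 and 0.296 FPKM in Control, so the sum says little of NK cells as such. For 4 B-cell genes the means were 51.3, 31.0, 44.4 and 20.4. Nearly all of this sum was Ighm, an immunoglobulin constant gene and the only gene of that list that could be tested. Ighm was called lower in Combination against Control and against ABL503. Cd79a, Ms4a1 and Pax5 averaged under 1 FPKM in every group, so the sum says little of B cells as such. For 7 macrophage and monocyte genes the means were 30.6, 20.4, 25.5 and 4.94. Their ranges overlapped, from 1.42 to 105 in Control and from 1.32 to 15.9 in the Combination. Of these genes 4 could be tested, and none was called in any comparison. Gamma-delta T-cell genes, 6 in the table with Sox13 at 0, summed to 35.6, 31.3, 28.6 and 74.3, and the highest library was Combination 3 at 233. In that library Tcrg-C1 alone stood at 167 FPKM and Trdc at 3.47. Trdc and Tcrg-C4 had lower means in the Combination than in Control, whereas Trdv4, Tcrg-C1 and Tcrg-C2 had higher ones. None of the 5 tested was called in any comparison. The 6 genes of CD8 T cells summed to between 5229 and 6359 FPKM in all libraries. The part of these other cells in the evenness values was not tested.

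Each Combination library was led by a different segment. Trav12-3 led Combination 1 with 34.7% of the Trav sum (307 FPKM), Trav12-2 led Combination 2 with 56.9% (463 FPKM), and Trav17 led Combination 4 with 53.5% (935 FPKM). In Combination 2 and Combination 4 the leading segment was thus higher than all other Trav segments together. Combination 5 was led by Trav16 with 45.3% (685 FPKM), followed by the identical copies Trav7n-5 at 21.4% and Trav7d-5 at 21.1%. Combination 3 was led by Trav5n-4 at 13.0% with its identical copy Trav5d-4 at 12.4%, and the copies of Trav5-4 together made 26.8%. The leading segment held 40.7% ± 17.7 in the Combination, 17.2% ± 6.66 in Control, 20.9% ± 7.64 in Pembrolizumab and 14.8% ± 3.42 in ABL503. Leading shares of 4 Combination libraries were above the highest library of each other group, which was 28.9% in Control 5. With copies added together, the leading share was 45.1% ± 13.2 in the Combination and 20.2% ± 8.0 in Control, and the same 4 Combination libraries lay above the highest other library, Control 5 at 34.2%. Without Combination 3 the Combination minus Control difference was 30.3 percentage points, and without Combination 2 it was 19.4.

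**Figure D2:**
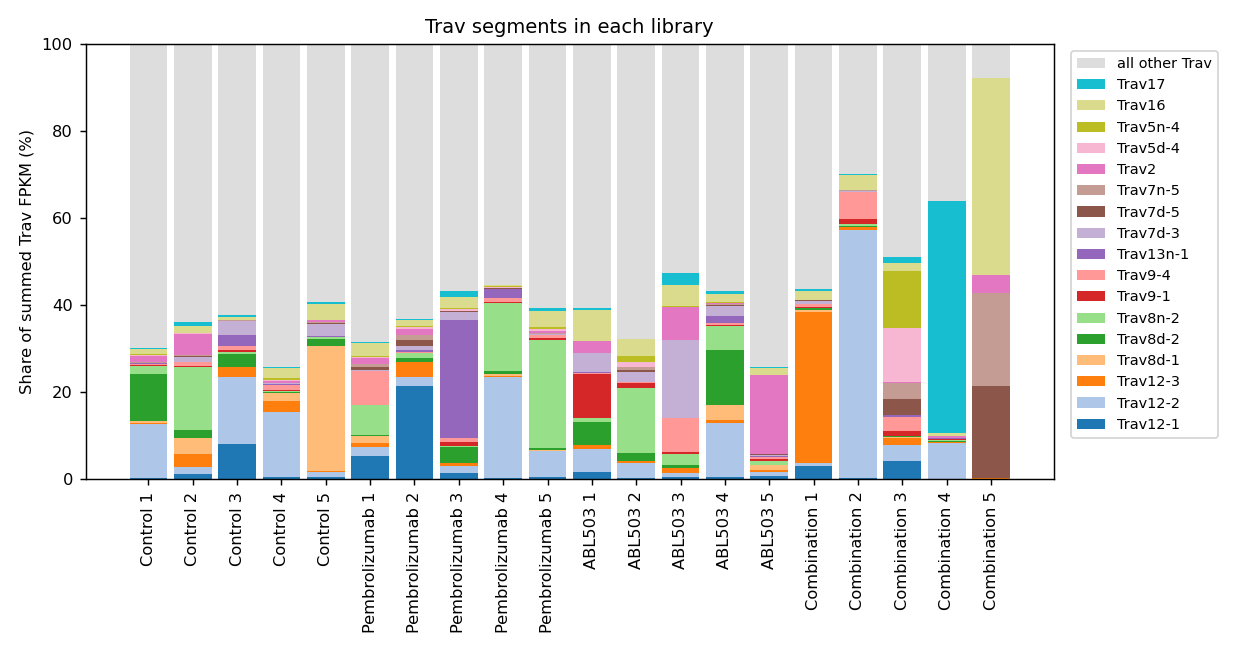
Share of the summed Trav FPKM (%) held by named segments in each of the 20 libraries. Coloured pieces are the 14 segments that led a library plus Trav5d-4, Trav7d-5 and Trav7n-5, and grey is the sum of all others. Trav12-2 fills 56.9% of Combination 2 and Trav17 fills 53.5% of Combination 4, while Trav16 with the copies of Trav7-5 fills most of Combination 5.

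The segments that led Combination libraries were minor in most others, apart from Trav12-2. Trav17 had a median share of 0.339% in the other 19 libraries and at most 2.59%, in ABL503 3. Trav12-3 had a median of 0.649% and at most 3.34%, and Trav5n-4 a median of 0.149% and at most 1.29%. Trav16 had a median of 1.94% and at most 7.09%, in ABL503 1. Each was therefore several times higher in 1 library than in any other. Trav12-2 differed from this: outside Combination 2 it held over 5% in 8 of 19 libraries, with a median of 3.51% and at most 23.3% in Pembrolizumab 4. None of the leading segments passed the test between Combination and Control (limma fitted to all genes). For Trav17 the difference was 1.37 on the log2(FPKM + 1) scale (SE 1.25, adjusted p = 0.49), and for Trav16 it was 0.98 (SE 0.84, adjusted p = 0.46). For Trav7n-5 it was 2.02 (SE 1.08, adjusted p = 0.23).

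In the other groups, too, the leading segment changed from library to library, at lower shares. Control libraries 1, 3 and 4 were led by Trav12-2 with 12.2%, 15.6% and 14.8%, Control 2 by Trav8n-2 with 14.6% and Control 5 by Trav8d-1 with 28.9%. Pembrolizumab libraries were led by Trav9-4 (7.74%), Trav12-1 (21.4%), Trav13n-1 (27.1%), Trav12-2 (23.3%) and Trav8n-2 (24.9%), from 1 to 5. In the ABL503 libraries the order was Trav9-1 (10.2%), Trav8n-2 (15.1%), Trav7d-3 (17.9%), Trav8d-2 (12.6%) and Trav2 (18.1%). Over all libraries 14 segments led at least 1. Trav12-2 led 5 libraries, Trav8n-2 led 3, and the other 12 led 1 each. Control 5 stood apart from the other Control libraries, since Trav8d-1 had a median of 0.296% and at most 3.72% in the other 19 libraries. Its effective number of 22.7 was the lowest of the group.

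Trav profiles of 2 libraries overlapped about as much within a treatment as between treatments. The shared part of 2 profiles, the sum over segments of the smaller share, had a median of 35.5% over the 40 pairs within groups and 33.8% over the 150 pairs between groups. Within Control it was 43.1% (35.4% to 58.1%), within ABL503 39.5%, within Pembrolizumab 32.6% and within the Combination 18.4% (6.36% to 31.4%). By single segment, each pair of Combination libraries thus shared less than any pair of Control libraries did. By subfamily the ranges overlapped, from 12.2% to 67.2% (median 33.2%) within the Combination and from 44.9% to 73.1% (median 61.0%) within Control. Pairs share libraries, so these values carry no test.

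By subfamily, Trav12 held the most over all 20 libraries, with a mean share of 17.8%, and led 7 libraries. Trav7 followed with 12.6%, Trav8 with 11%, Trav16 with 9.68%, Trav9 with 8.30% and Trav6 with 6.85%. The single segments with the highest mean shares were Trav12-2 with 8.66%, Trav16 with 4.66%, Trav8n-2 with 4.65%, Trav16n with 3.48%, Trav17 with 3.2% and Trav3-3 with 2.90%. The places of Trav16 and Trav17 rest on Combination 5 and Combination 4, as their medians in the other libraries show. Trav14 had 5.30% and Trav4 had 2.94%. Trav12 ranged from 0.467% in Combination 5 to 61.7% in Combination 2, and in no comparison did its sum pass the test: Combination minus Control was -0.15 on the log2(FPKM + 1) scale (SE 0.85, limma adjusted p = 0.93). For Trav9 the difference was -0.86 (SE 0.74, adjusted p = 0.47) and for Trav4 it was -1.09 (SE 0.75, adjusted p = 0.35). The spread between libraries of 1 group was as large as these differences.

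**Figure D3:**
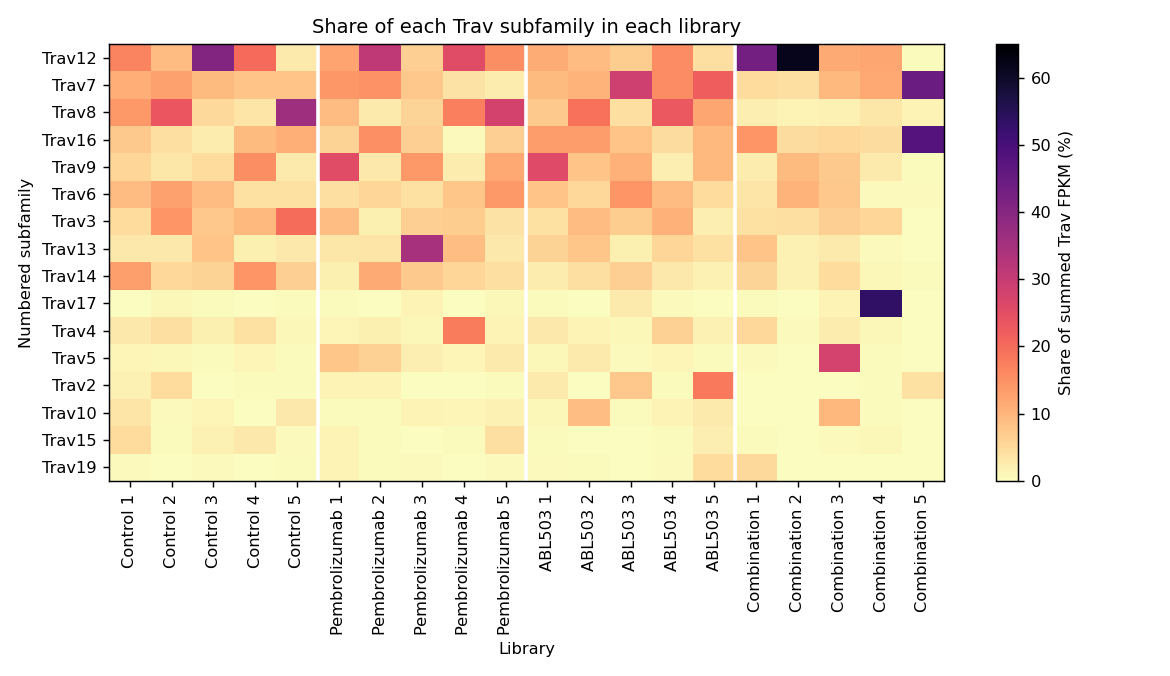
Share of the summed Trav FPKM (%) of the 16 subfamilies with the highest mean share (rows, in order of that mean) in each library (columns, white lines between groups). Dark cells are high shares, such as Trav12 at 61.7% in Combination 2, and the Trav8 row is pale across the Combination.

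Trav8 fell in the Combination and had the smallest adjusted p of the subfamilies. Its summed FPKM in Control libraries was 165, 302, 50.0, 40.6 and 345, in Pembrolizumab 78.1, 23.3, 66.6, 148 and 247, and in ABL503 57.9, 196, 53.0, 268 and 125. In the Combination it was 18.1, 10.7, 15.2, 57.2 and 22.0. Only Combination 4 reached the range of Control, and the share of Trav8 in the Trav sum was 1.94% ± 0.794 in the Combination against 16.4% ± 13.7 in Control. On the log2(FPKM + 1) scale Trav8 differed from Control by -2.58 (SE 0.65, limma fitted to all genes with Benjamini-Hochberg adjustment, adjusted p = 0.013) and from ABL503 by -2.42 (SE 0.65, adjusted p = 0.037). Against Pembrolizumab the difference was -1.99 (SE 0.65, adjusted p = 0.19). The call against Control held without any 1 of the 10 libraries, with adjusted p up to 0.040. The call against ABL503 was lost without any 1 of 7 of them (ABL503 2, 4 and 5 and Combination 1, 2, 3 and 5), with adjusted p up to 0.095 without ABL503 2.

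Trav14 fell as well, and here Combination and Control did not overlap. Control libraries had 156, 66.9, 60.9, 173 and 61.8 FPKM, and Combination libraries had 50.6, 13.8, 43.8, 13.7 and 4.44. Pembrolizumab libraries had 15.6, 102, 83.6, 46.3 and 37.7, and ABL503 libraries had 18.8, 42.6, 82.4, 33.7 and 16.5, which lay between and overlapped both. Combination minus Control was -2.27 (SE 0.58, adjusted p = 0.014), a call that held without any 1 of the 10 libraries, with adjusted p up to 0.042. ABL503 minus Control was -1.47 (SE 0.58, adjusted p = 0.33), and Pembrolizumab minus Control was -0.96 (SE 0.58, adjusted p = 0.38).

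These were 2 of the 19 subfamily sums that could be tested, both lower. Of all 11707 rows fitted with these sums, 12.8% were called in Combination against Control, 6.46% higher and 6.3% lower, so the number of calls among the subfamilies was near the background. The median difference over the 19 was -1.03, beside -0.03 over all rows, and 15 of 19 differences were below 0. Against ABL503, 1 of 19 was called lower and none higher, beside 4.62% of all rows (2.33% higher and 2.29% lower). No subfamily was called in the other 4 comparisons. In Pembrolizumab against Control 5.59% of all rows were called, and 0 of 19 sums had an unadjusted p under 0.05, beside 20.3% of all rows. In ABL503 against Control these were 0.632% called and 2 of 19 unadjusted beside 11%. In Combination against Pembrolizumab they were 0.179% called and 3 of 19 beside 13.2%, and in ABL503 against Pembrolizumab 1.31% called and 1 of 19 beside 13.6%. With no filter on low values, neither Trav8 nor Trav14 passed in Combination against Control, both with an adjusted p of 0.056. Without Combination 3 the count against Control was 4, and 1 subfamily was called against Pembrolizumab.

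**Figure D4:**
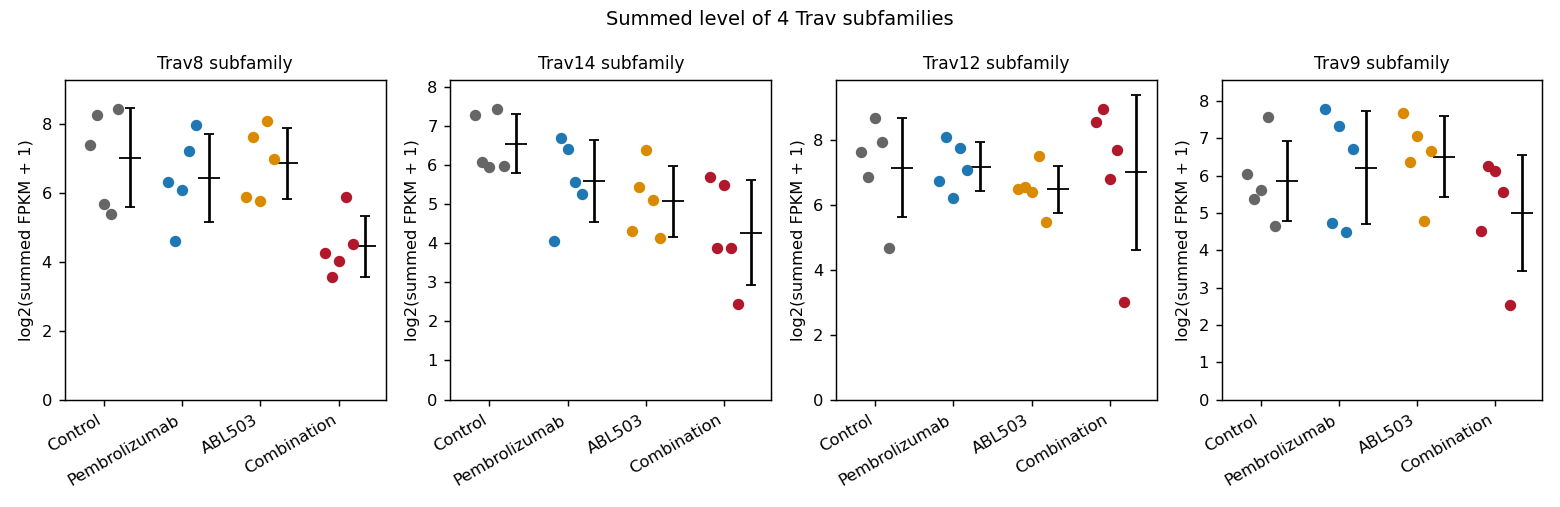
Summed level of the Trav8, Trav14, Trav12 and Trav9 subfamilies as log2(summed FPKM + 1) in each library, by treatment group, with the mean and SD of 5 libraries beside the points. Combination libraries lie low for Trav8 and below every Control library for Trav14, whereas for Trav12 and Trav9 the groups overlap.

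At the level of single segments, 106 of the 128 passed the filter of 1 FPKM in at least 5 libraries and were tested, 3 of them pseudogenes. In Combination against Control none was higher and 11 were lower, which is 10.4% of those tested, beside 12.6% of all 11794 genes called, 6.34% higher and 6.24% lower. Over the 106 segments the median difference was -0.92, beside -0.04 over all genes, and 90 differences were below 0. The segments called belonged to Trav6 (Trav6-1, Trav6d-7 and Trav6n-7), Trav8 (Trav8d-2), Trav13 (Trav13-3 and Trav13d-3), Trav14 (Trav14-3, Trav14d-1 and Trav14n-3) and Trav15 (Trav15n-1 and Trav15d-1-dv6d-1). Trav6d-7 and Trav6n-7 are identical copies, as are Trav15n-1 and Trav15d-1-dv6d-1, so these were not 11 separate observations. Trav6-1, Trav13d-3, Trav15n-1 and Trav15d-1-dv6d-1 did not meet the filter in the Control and Combination libraries alone. They were open to testing only through libraries of other groups as well, and their calls are to be read with that limit. The other 7 of the 11 could be fitted with only the groups compared, and none of those 7 calls was lost there.

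Trav14-3 had 18.3, 11.5, 4.93, 19.7 and 10.0 FPKM in Control and 2.41, 0.355, 3.65, 4.53 and 0 in the Combination, with no overlap (difference -2.28, SE 0.59, adjusted p = 0.016). Trav13-3, annotated as a pseudogene and low everywhere, had 1.76, 1.17, 2.55, 3.94 and 4.19 FPKM in Control and at most 0.692 in the Combination, where 3 libraries were at 0 (difference -1.54, SE 0.38, adjusted p = 0.011). These were the only 2 of the 11 calls that held without any 1 of the 10 libraries. The Trav13-3 call also held under the 7 other settings tried. Its 5 Control libraries alone met the filter of 1 FPKM in 5 libraries, while no Combination library reached 1 FPKM. Trav13-3 was thus open to testing through the group where it was high, and its call is to be read with that limit. The Trav14-3 call was lost with a pseudocount of 0.1 (limma adjusted p = 0.066) and with no filter on low values (adjusted p = 0.059). Trav8d-2 had 127, 23.1, 31.4, 3.64 and 13.7 FPKM in Control and 4.38, 1.85, 0.953, 2.65 and 0.442 in the Combination (difference -3.08, SE 0.91, adjusted p = 0.031, but 0.094 without Control 1 and 0.083 with array weights). Trav14n-3 differed by -2.96 (SE 0.92, adjusted p = 0.040, but 0.11 without Control 1), and Trav6d-7 by -2.71 (SE 0.73, adjusted p = 0.019, but 0.053 without Control 1). The other 6 called segments had differences of -0.99 to -2.33 and adjusted p of 0.029 to 0.049.

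The count of 11 depended on single libraries. It was 2 without Control 1, 3 without Combination 2 or Combination 5, 4 without Control 3 or Combination 1, 7 without Control 2, and 16 without Combination 3, the Combination library with the most even repertoire. Of the 11 calls themselves, 9 were lost without Control 1, 8 without Control 3, Combination 2 or Combination 5, 7 without Combination 1, 5 without Control 2 or Combination 4, 4 without Control 4, 2 without Control 5 and 1 without Combination 3. With no filter on low values 1 segment was called. A pseudocount of 0.1 ended 5 of the 11 calls (Trav14-3, Trav14d-1, Trav6-1, Trav15n-1 and Trav15d-1-dv6d-1), array weights ended 3 (Trav14d-1, Trav6-1 and Trav8d-2), and quantile normalization ended 2 (Trav14d-1 and Trav6-1).

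The other comparisons gave few calls among segments. In Pembrolizumab against Control, 0 of 106 were higher and 2 were lower, beside 5.55% of all genes called (2.77% higher and 2.78% lower): Trav14-3 (difference -2.11, SE 0.59, adjusted p = 0.040) and Trav6-1 (difference -1.11, SE 0.32, adjusted p = 0.048). Trav14-3 stood at 1.02, 10.7, 1.55, 0 and 2.62 FPKM in Pembrolizumab, of which only Pembrolizumab 2 reached the Control range. Both comparisons with Control use the same Control libraries. When 1 of the 10 libraries was left out, the Trav14-3 call held only without Control 3 or Pembrolizumab 2, and the Trav6-1 call only without Control 4 or Pembrolizumab 1. The largest adjusted p was reached without Control 1, at 0.099 for Trav14-3 and 0.13 for Trav6-1. Neither call held with a pseudocount of 0.1 or with no filter. Trav6-1 was at most 0.803 FPKM in Pembrolizumab, so it passed the filter through other groups, and it could not be fitted with only the groups compared. In ABL503 against Control no segment was called (0.619% of all genes were), 15 had an unadjusted p under 0.05 beside 11% of all genes, and 2 were called without Control 5. In ABL503 against Pembrolizumab none was called (1.28% of all genes were), 9 had an unadjusted p under 0.05 beside 13.5% of all genes, and 1 was called without Pembrolizumab 2 or Pembrolizumab 3.

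Combination against ABL503 gave 3 lower segments and none higher, beside 4.53% of all genes called (2.29% higher and 2.24% lower). Trav7-3 had 10.3, 6.94, 72.9, 73.9 and 15.4 FPKM in ABL503 and 3.25, 2.77, 0.824, 1.49 and 0.637 in the Combination, with no overlap (difference -3.21, SE 0.69, adjusted p = 0.011), a call that held without any 1 of the 10 libraries. Its d copy Trav7d-3 had 35.6, 21.4, 225, 27.1 and 4.62 FPKM in ABL503 and 5.17, 1.66, 0, 2.28 and 0.435 in the Combination, where only Combination 1 reached the ABL503 range (difference -3.71, SE 0.93, adjusted p = 0.025, but 0.073 without ABL503 3). The Trav7d-3 call was also lost without ABL503 2, ABL503 4, Combination 2, Combination 3 or Combination 5. Trav13-2 differed by -2.02 (SE 0.57, adjusted p = 0.045, but 0.097 without Combination 5), and its call held only without ABL503 4 among the 10 and was lost as well with a pseudocount of 0.1, with no filter, with quantile normalization and with only the groups compared. The count was 1 without ABL503 2, Combination 2, Combination 3 or Combination 5, and 5 without ABL503 1. In Combination against Pembrolizumab no segment was called (0.161% of all genes were), 15 had an unadjusted p under 0.05 beside 13.2% of all genes, and none was called without any 1 library.

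Segments used by invariant T cells were uneven in level. Trav11 and its identical copy Trav11d did not exceed 2.85 FPKM, and Zbtb16, the transcription factor that invariant NKT and MAIT cells share, did not exceed 0.12 FPKM. Traj18, the J segment of invariant NKT cells, ran from 12 to 53.6 FPKM, and Traj33, a J segment of MAIT cells that other T cells can also use, reached 239 FPKM in Combination 1, where it was the leading Traj. Trav1 reached 30.7 FPKM in ABL503 1, and had 5.85, 10.3, 9.38, 60.1 and 1.16 FPKM in Control and 2.91, 0, 3.48, 0 and 0 in the Combination (difference -2.51, SE 0.84, adjusted p = 0.053 as a subfamily). The 10 segments with a delta name held 0.474% to 10.1% of the Trav sum. Trdc, the delta constant gene, stood between 0 and 8.28 FPKM in all libraries, against 1005 to 1771 FPKM for Trac.

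Position along the locus was compared in 3 blocks of neighbouring segments. The block nearest the J segments, 42 segments from Trav7-4 to Trav23, held 35.9% ± 8.34 of the Trav sum in Control, 35.4% ± 7.70 with Pembrolizumab, 38.6% ± 8.55 with ABL503 and 63.7% ± 18.1 with the Combination. Its Combination libraries ran from 41.6% to 81.1% and its Control libraries from 24.9% to 48.1%, so they overlapped. The middle block, 43 segments from Trav16d-dv11 to Trav6-4, held 32.1% ± 8.24 in Control and 19.0% ± 9.74 in the Combination. The far block, 43 segments from Trav1 to Trav8d-2, held 32.0% ± 7.67 and 17.3% ± 9.22. Trav12-2, Trav12-3, Trav16 and Trav17, which led 4 of the Combination libraries, all lie in the near block, so the block values restate those leading segments.

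The alpha J and beta V segments were uneven in the same libraries. The leading Traj segment held 40.3% in Combination 1 (Traj33), 40.5% in Combination 2 (Traj44), 23.7% in Combination 3 (Traj11), 46.9% in Combination 4 (Traj34) and 48.6% in Combination 5 (Traj43, with Traj49 at 33.8%). The leading Trbv segment held 54.0% and 71.3% in Combination 1 and 2 (Trbv13-1 in both), 30.8% in Combination 3 (Trbv4), 46.2% in Combination 4 (Trbv3) and 89.7% in Combination 5 (Trbv17). Combination 5 thus had 1 dominant beta V segment beside a pair of high alpha V names (Trav16 and Trav7-5 copies) and a pair of high J segments. Means of the leading Traj share were 18.7% ± 5.40 in Control, 21.3% ± 7.31 with Pembrolizumab, 23.7% ± 7.77 with ABL503 and 40.0% ± 9.86 with the Combination. Those of Trbv were 29.0% ± 7.05, 30.9% ± 9.16, 31.5% ± 5.22 and 58.4% ± 22.8. The effective number of Trbv segments was 11 ± 0.839 in Control and 5.42 ± 3.0 in the Combination, and that of Traj segments was 21.2 ± 2.93 and 10.8 ± 4.43. Which V, J and beta segments lie in the same cell cannot be told from bulk values.

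**Figure D5:**
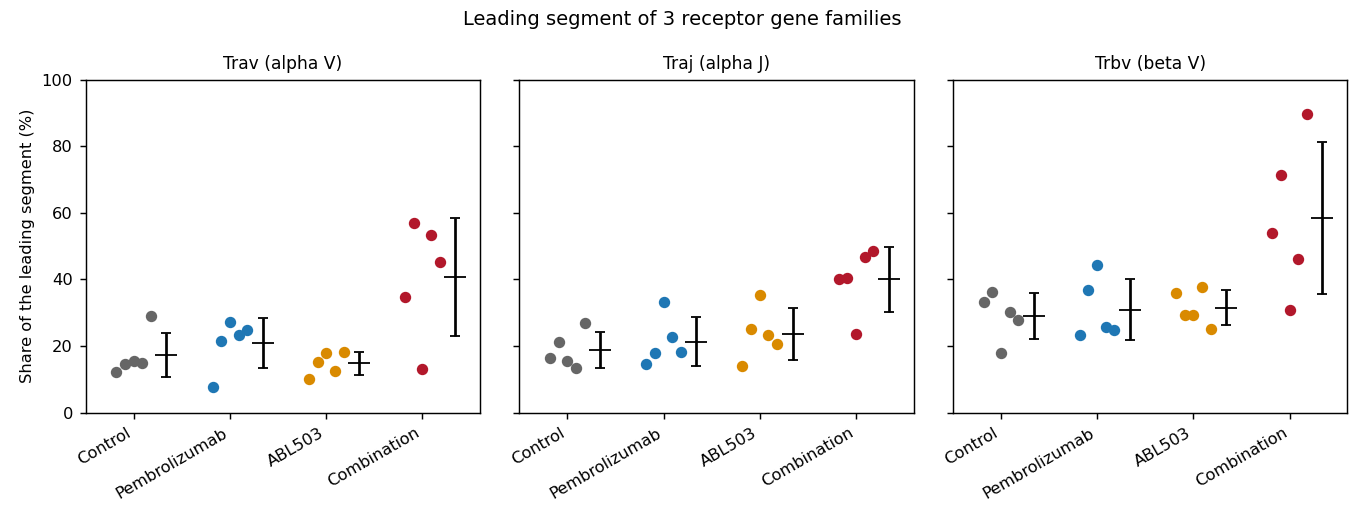
Share of the leading segment (% of the summed FPKM of its family) for Trav, Traj and Trbv in each library, by treatment group, with the mean and SD of 5 libraries beside the points. In all 3 families Combination 3 is the lowest Combination library, and Combination 5 reaches 89.7% for Trbv.

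Genes around the receptor were read from a list of the receptor complex and its proximal signalling genes. Of the 19 reported here, 2 were higher and 0 lower in Combination against Control, beside 6.34% of all genes called higher and 6.24% lower. They were Cd8a (difference 0.43, SE 0.11, limma adjusted p = 0.013) and Themis, a signalling adaptor of the receptor (0.29, SE 0.09, adjusted p = 0.045). In Pembrolizumab against Control, where 5.55% of all genes were called, Ptpn22, a phosphatase that dampens receptor signals, was lower (-0.39, SE 0.09, limma adjusted p = 0.017). The other 4 comparisons had no call among the 19, beside 0.161% to 4.53% of all genes. Trac, Trbc1 and Trbc2 passed in none of the 6 comparisons.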

How the data were processed

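RNA of sorted CD8+ T cells was made into libraries with the SMART-Seq v4 kit, per the labels' protocols. Per the submitters' processing notes, HISAT2 and StringTie were used on GRCm38 (mm10); their versions and the annotation are not given in the sources used here. The deposited table holds 1 value per gene symbol and library, taken to be FPKM because StringTie reports it, the values have decimals and the columns sum to different totals; the table itself states no unit. Read counts and depth are unknown. How the authors divided reads between identical copies is not stated, and this affects single segments more than subfamily sums.

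Shares are a segment's FPKM divided by the summed Trav FPKM of its library. For tests the deposited FPKM values were turned into log2(FPKM + 1), which understates changes of low genes. The filter kept 11794 genes that reached 1 FPKM in 5 or more libraries. The model was fitted in R 4.3.3 with limma 3.58.1: a mean for each group, an intensity trend and 16 residual degrees of freedom. All 6 pairwise comparisons were two-sided, with Benjamini-Hochberg adjustment over all genes and a threshold of 0.05. Subfamily sums replaced the segments in a second fit. The model was also fitted to simulated data, drawn as independent normal values on the log scale. Such data lack the floor at 0 and the reads shared between copies, so that run does not show how the fit handles Trav segments. Summaries were computed in Python 3.11.15 with pandas 2.3.3 and drawn with matplotlib 3.10.9.

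Named segments and subfamilies are the 6 with the highest mean share, any that led a library, any called, and a panel of Trav1, Trav11, Trav14, Trav9, Trav12 and Trav4. The members, lists and this rule were chosen with earlier results of these data known. Some genes of the marker and receptor lists are not reported here and were left out of those lists' counts and sums. Alternatives were quantile normalization, a pseudocount of 0.1, no filter, equal column sums, array weights, a replicate block, only the groups compared, added copies, low values set to 0, delta-named segments left out, and each library left out in turn.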

Additional observations from a re-analysis of the deposited data

Results flagged for a closer look

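In groups of 5 libraries, 1 library was far from the other 4 by a gap rule in 37 of 128 groups examined (28.9%). The rule is set to be met in about 1 of 20 groups of normally distributed values. It was applied here to unlogged FPKM, shares and indices, and all but 1 of the flagged libraries were the highest of their group. The percentage therefore cannot show an excess over chance. Segments and subfamilies that share copies are not independent, and the values that follow are given without explanation.

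Of the whole-repertoire measures, the rule was met by summed Trav FPKM in Pembrolizumab 3 (1156, next 886), Pielou evenness in Control 5 (0.675, next 0.785) and the leading share in Control 5 (28.9%, next 15.6%).

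Among subfamily levels in FPKM, the Combination libraries that stood apart were Combination 4 for Trav17 (935, next 13.3) and Trav8 (57.2, next 22.0), Combination 5 for Trav16 (724, next 127) and Trav7 (671, next 208), and Combination 3 for Trav5 (261, next 8.38). In Control they were Control 4 for Trav1 (60.1) and Trav9 (188), Control 1 for Trav11 (5.65), Control 3 for Trav13 (79.3) and Control 2 for Trav17 (11.5). In Pembrolizumab they were Pembrolizumab 1 for Trav11 (4.97), Pembrolizumab 3 for Trav13 (402, next 74.9) and Pembrolizumab 4 for Trav4 (150.1, next 16.9). In ABL503 they were ABL503 1 for Trav1 (30.7), ABL503 2 for Trav11 (2.23, others at 0), ABL503 3 for Trav17 (32.6) and ABL503 4 for Trav4 (73.7).

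Single segments in FPKM stood apart in 17 groups. Pembrolizumab 2 was high for Trav14-3 (10.7) and Trav14n-3 (80.8, next 6.95), Pembrolizumab 4 for Trav13d-3 (2.14) and Trav14d-1 (17.1), and Pembrolizumab 3 for Trav7-3 (23.0) and Trav8d-2 (41.9). Pembrolizumab 1 was high for Trav15d-1-dv6d-1 (5.22), its identical copy Trav15n-1 (5.21) and Trav6-1 (0.803). ABL503 3 was high for Trav6d-7 (18.5), its identical copy Trav6n-7 (17.3) and Trav7d-3 (225, next 35.6), ABL503 4 for Trav8d-2 (147, next 41.3) and ABL503 1 for Trav13-2 (30.7). Control 1 was high for Trav8d-2 (127, next 31.4). Combination 3 was high for Trav6d-7 (3.49) and Combination 4 for Trav13d-3 (0.954, others at 0).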

How the results depend on the processing

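No called difference of a segment or subfamily changed sign. Of 15 group differences in evenness, leading share and summed FPKM, which carry no test, 4 changed sign under some alternative, each by less than the spread between libraries. Summed Trav FPKM in Combination minus Control was 50.7, but -91.2 without Combination 4 and -32.4 without Combination 5. The effective number of subfamilies in Pembrolizumab minus Control was -0.48, but 0.10 without Control 1. The leading share in ABL503 minus Control was -2.47 percentage points, but 0.45 without Control 5. Pielou evenness in ABL503 minus Control was -0.0059, but between 0.0011 and 0.0045 without Control 1, 2 or 3 and 0.0092 with copies added together. For segments in Pembrolizumab against Control the count of calls was 0 with a pseudocount of 0.1 and with no filter, and 1 with quantile normalization, with the replicate block and with only the groups compared, beside 2. For ABL503 against Control it was 3 with only the groups compared. With no filter it was 1 for Combination against Control and 1 for Combination against ABL503, and 0 for subfamilies in both. For ABL503 against Pembrolizumab it was 1 with array weights and with only the groups compared, for segments, and 1 with only the groups compared, for subfamilies. The cause was not tested. With copies added together, the Combination minus Control difference in the effective number of segments was -9.86.

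When each library was left out in turn, segment counts ran from 0 to 2 in Pembrolizumab against Control and in ABL503 against Control, from 2 to 16 in Combination against Control, from 1 to 5 in Combination against ABL503 and from 0 to 1 in ABL503 against Pembrolizumab. Subfamily counts ran from 2 to 4 in Combination against Control, and from 0 to 1 in Combination against Pembrolizumab and against ABL503. The Combination minus Control difference in the effective number ran from -28.2 to -20.6, that in the leading share from 19.4 to 30.3 percentage points, and that in summed Trav FPKM from -91.2 to 142. Of the 19 single calls, equal column sums kept all, no filter ended 17, a pseudocount of 0.1 ended 8, and quantile normalization and array weights ended 4 each. Only the groups compared ended 2 of the 14 that could be fitted.

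Libraries share only a replicate number: the correlation of deviations between same-numbered libraries ran from -0.15 to 0.11 (median 0.03, 30 pairs). Between libraries of different groups with other numbers it ran from -0.12 to 0.17 (median -0.002, 120 pairs). The replicate block ended 1 of 19 single calls (Trav14-3 in Pembrolizumab against Control, limma adjusted p = 0.057). Depth is unknown, so no limit of detection is given for segments listed at 0.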
